A study of Mus musculus with 7 samples.

Results

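Cell cycle and DNA replication genes were followed in mouse retinal pigment epithelium (RPE), a single sheet of pigment cells that supports the photoreceptors, with and without Dicer1, whose product cuts microRNAs from their precursors. The group was a list of 41 genes, and a gene entered where a probe set of the array carried its symbol, or an older symbol of it, and no other. All 41 were found, among 5017 genes measured, with 14 on chromosome 1, 9 on chromosome 10, 12 on chromosome 11 and 3 each on chromosomes 12 and 13. By role, 11 act in S phase, 16 in mitosis, 4 are G1 kinases or E2F factors, 7 serve DNA repair and 3 belong to the nuclear envelope or chromatin. Each gene had 4 to 39 probe sets, with a median of 14.

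The series held 7 Affymetrix arrays of RPE dissected from mouse pups at postnatal day 5, 4 from controls and 3 from pups with Dicer1-deficient RPE. The deficient genotype was Dicer1loxP/loxP;Dct-Cre, in which Cre recombinase is driven by the promoter of Dct, a melanin synthesis gene of pigment cells. The pups came from a mating of Dicer1 flox/+ animals carrying Dct cre with Dicer1 flox/flox animals, so every pup of it inherits a floxed allele from the second parent. The labels call the controls control RPE without a genotype, and do not say whether they carried Cre. They do not say which arrays share an animal or a pool, so each p-value speaks only for the spread among these arrays, part of which may be technical. In bulk tissue, fewer cells of a type and less RNA per cell cannot be told apart.

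Dividing cells copy their DNA in S phase and part it in mitosis. E2F factors, held back by retinoblastoma proteins until G1 cyclin-dependent kinases act, switch on the S-phase genes, and a later wave that peaks before division switches on the mitotic genes. RPE cells hardly divide in the adult, and how far they still divided at postnatal day 5 was not measured here. Progenitors in the neighbouring retina and connective tissue cells around the eye also divide after birth.

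The promoters of such genes are known for separate motifs in each wave, and 5 are shown, of genes that mark a wave (Cdk1, Top2a, Mcm6) or on which the values below turn (Cdk2, Zwint). RefSeq promoter windows (build GRCm38.p6, 250 bases before to 50 after the gene start) were matched for 38 of the 41 members, in 42 windows. Prim2, Aurkb and Gmnn had no entry. On both strands, 3 kinds of motif were searched: the E2F-type sites TTTCCCGC and TTTGGCGC, the CHR-type site TTTGAA (the cell cycle homology region of late genes) and the CCAAT box, bound by NF-Y. No motif contains another. Each sequence below holds the 150 bases before the start, 5′ to 3′ on the gene's strand, with every match in capitals.
Cdk1, chr10:69352913-69353062, minus strand: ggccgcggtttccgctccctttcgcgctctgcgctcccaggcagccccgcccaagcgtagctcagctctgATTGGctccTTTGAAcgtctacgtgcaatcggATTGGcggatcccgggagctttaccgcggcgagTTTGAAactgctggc
Top2a, chr11:99024190-99024339, minus strand: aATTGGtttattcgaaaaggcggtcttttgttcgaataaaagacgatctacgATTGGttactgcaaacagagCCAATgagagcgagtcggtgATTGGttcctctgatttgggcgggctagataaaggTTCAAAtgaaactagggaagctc
Mcm6, chr1:128359706-128359855, minus strand: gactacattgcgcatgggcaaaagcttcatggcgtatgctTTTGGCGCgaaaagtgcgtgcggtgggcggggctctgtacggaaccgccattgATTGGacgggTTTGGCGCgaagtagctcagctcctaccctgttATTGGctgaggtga
Cdk2, chr10:128705052-128705201, minus strand: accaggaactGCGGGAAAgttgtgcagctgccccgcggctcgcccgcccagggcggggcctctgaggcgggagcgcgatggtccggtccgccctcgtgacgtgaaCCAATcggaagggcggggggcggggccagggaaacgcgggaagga
Zwint, chr10:72654696-72654845, plus strand: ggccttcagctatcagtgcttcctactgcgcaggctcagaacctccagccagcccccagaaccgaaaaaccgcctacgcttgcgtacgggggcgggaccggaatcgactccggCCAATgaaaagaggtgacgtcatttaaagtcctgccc

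The mitotic promoters of Cdk1 and Top2a hold CHR-type letters beside 2 and 4 CCAAT boxes, and the S-phase promoter of Mcm6 holds 2 E2F-type sites. In Mcm6 these sites begin 110 and 47 bases before the start, and in Cdk1 the CHR-type sites begin 71 and 15 bases before it. The stretch of Cdk2 holds 1 E2F-type site and 1 CCAAT box, and that of Zwint 1 CCAAT box, 37 bases before the start. An E2F-type site lay in 5 of 9 S-phase windows (55.6%) and in 0 of 15 mitotic windows, against 1.56% of all 32851 windows. The CHR-type site showed the opposite split, with 8 of 15 mitotic windows (53.3%), 0 of 9 S-phase windows and 17.9% of all windows. A CCAAT box lay in 11 of 15 mitotic windows (73.3%) and 5 of 9 S-phase windows, against 37.4% of all. A match is a description of these letters, not a bound site, and no match says only that the letters are not in the window.

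**Figure D1:**
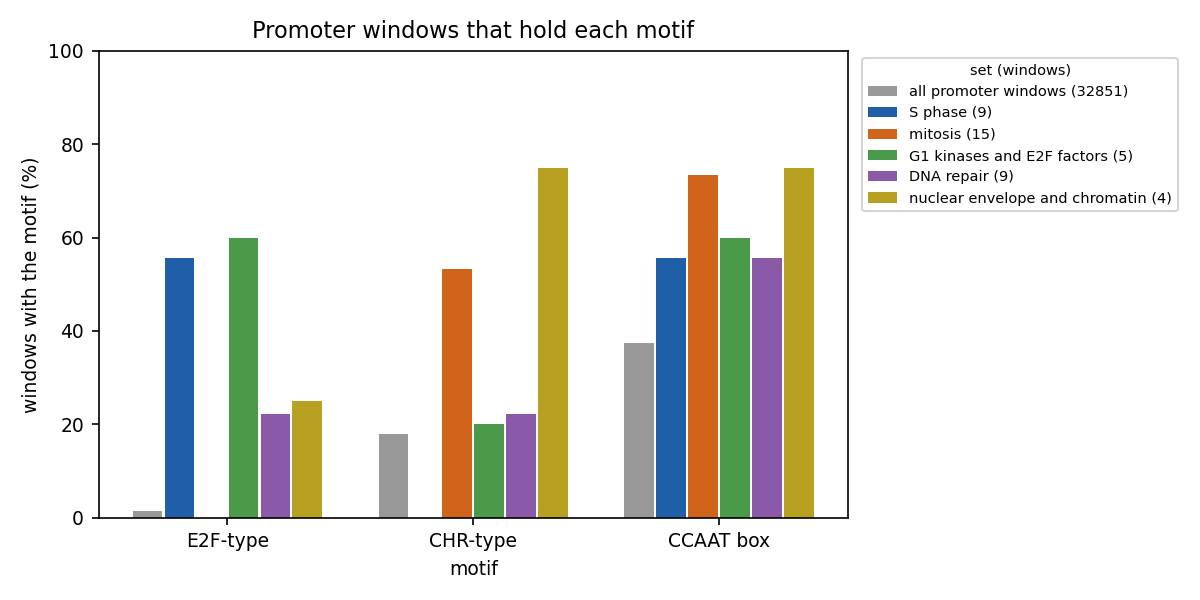
Share of promoter windows (%) that hold an E2F-type, CHR-type or CCAAT motif on either strand, for all windows and for each class of members, with the number of windows in brackets. S-phase windows reach 55.6% for the E2F-type motif and 0 for the CHR-type, and mitotic windows 0 and 53.3%.

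Signals are log2 values, so a difference of 1 is a factor of 2, and their median over all probe sets and arrays was 6.22. Control 4 stood apart, correlating with the other 6 arrays at 0.943 to 0.951 across probe sets, where controls 1 to 3 correlated with each other at 0.986 to 0.988. Results are therefore also given without it. The brightest probe set of Dicer1 read 10.62 ± 0.26 (SD, n = 4) in control against 10.57 ± 0.13 (SD, n = 3). Of the 28 probe sets of Dicer1, 14 were higher and 14 lower in the Dicer1-deficient arrays. None passed limma when fitted apart, with or without control 4. Which of them lie in the floxed part is not given in the sources used here, and one outside it checks nothing about the genotype. Of 10 RPE markers measured 7 were lower in the Dicer1-deficient arrays, with a median log2 fold change of -0.25, and 1 (Kcnj13) was called lower and 1 (Otx1) higher. Rpe65 was not analysed here.

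None of the 41 members passed the test between the groups. Top2a, Cdk1, Mcm6 and Rrm2 read above 10 on every array at their brightest probe sets. The control mean at that probe set lay below the median of all probe sets for 2 members, Gmnn and Rad51b, and for 1566 of all 5017 genes, and 288 of the members' 646 probe sets lay below it. In limma, with p-values adjusted by Benjamini-Hochberg across the 5017 genes, 0 members were called at adjusted p of 0.05, where 2.33% of all genes were. At an unadjusted limma p under 0.05 there were 5 members (12.2%), Zwint, Kif14, Cdk2, Brca1 and Lbr, against 14.5% of all genes. No array of one group lay within the other's range for 5 members (12.2%), Zwint, Nek2, Cdk2, Brca1 and Lbr, against 16.3% of all genes, and without control 4 for 9 (22%) against 29.8%. These shares lie near the background and are no result about the members.

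The members' differences were small in the main, and the intervals show how small. The median log2 fold change, Dicer1-deficient minus control, was 0.10 over the members and -0.01 over all genes, and its median size regardless of sign was 0.16 and 0.14. For 35 of 41 members (85.4%) the 95% interval of limma lay inside a change of 2-fold either way, against 90% of all genes, and for 22 it lay inside 1.5-fold. The 6 whose interval reached past 2-fold were Gmnn, Birc5, Kif14, Trip13, E2f3 and Brca1. Without control 4 the interval lay inside 2-fold for 39 members, with Cdc6 and Brca1 as the exceptions.

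**Figure D2:**
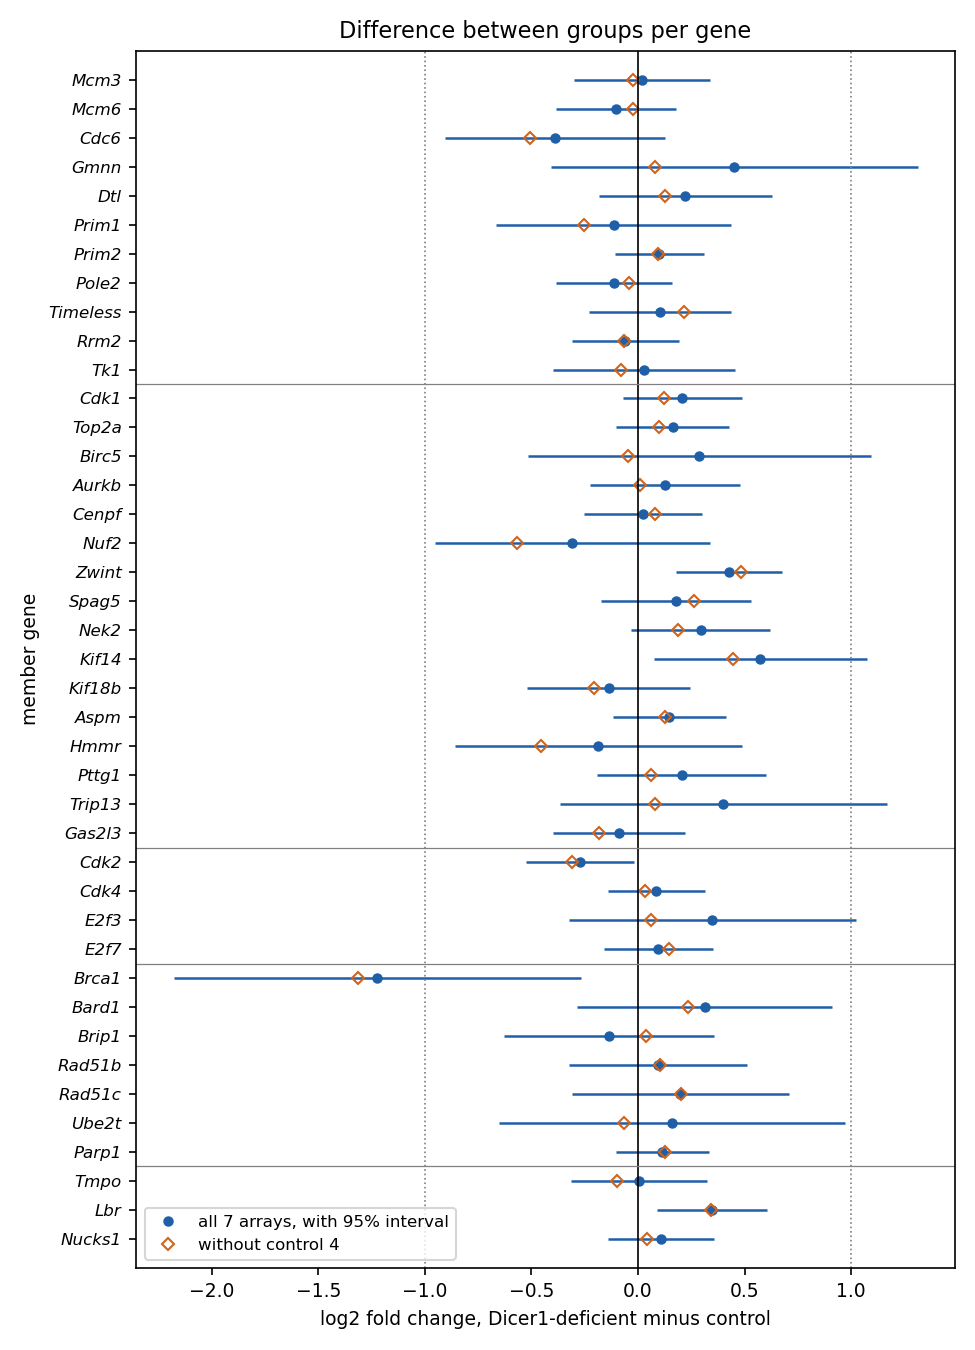
Log2 fold change of each member, Dicer1-deficient minus control, with the 95% interval from limma over 7 arrays (filled points and bars) and the value without control 4 (open diamonds); dotted lines mark a 2-fold change. 35 of 41 intervals stay between the dotted lines, and that of Brca1 reaches furthest, from -2.18 to -0.27.

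More members were higher than lower with all arrays, but not in every setting. Of 41 members 29 (70.7%) had a positive log2 fold change, against 48.1% of all genes. Without control 4 it was 25 members (61%) against 57.1% of all genes. With each gene's probe sets averaged over all arrays it was 24 members (58.5%) against 45.6%. With both changes at once it was 11 members (26.8%) against 51.3%, so the lean turned under the pair and under neither alone.

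Control 4 read low for many members. At the brightest probe set it was the lowest of the 7 arrays for 20 of all 41, against 23.1% of all genes. By class it was lowest for 12 of 16 mitotic members (75%) and 3 of 11 S-phase members. It was the highest for 5 members (12.2%), against 40% of all genes. Over all genes control 4 was the brightest array at these probe sets, with a mean of 7.83 against 7.70 to 7.75 in the others. Over all probe sets, though, control 4 had the lowest median, 6.05 against 6.22 to 6.26 in the others. The mean log2 signal over the mitotic members was 9.04, 8.88, 8.94 and 8.50 in controls 1 to 4, and 8.98, 8.99 and 8.98 in the Dicer1-deficient arrays. The Dicer1-deficient arrays thus sat within the range of controls 1 to 3, above control 4. The S-phase mean was 8.77, 8.54, 8.61 and 8.41 in the controls, and 8.65, 8.57 and 8.56 in the Dicer1-deficient arrays, which again lay among controls 1 to 3. With probe sets averaged, control 4 was low for both classes, at 6.05 for S phase against 6.41 to 6.65 in the other arrays, and at 6.215 for mitosis against 6.59 to 6.92. Over all genes it was at 6.23 there, against 6.25 to 6.27.

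**Figure D3:**
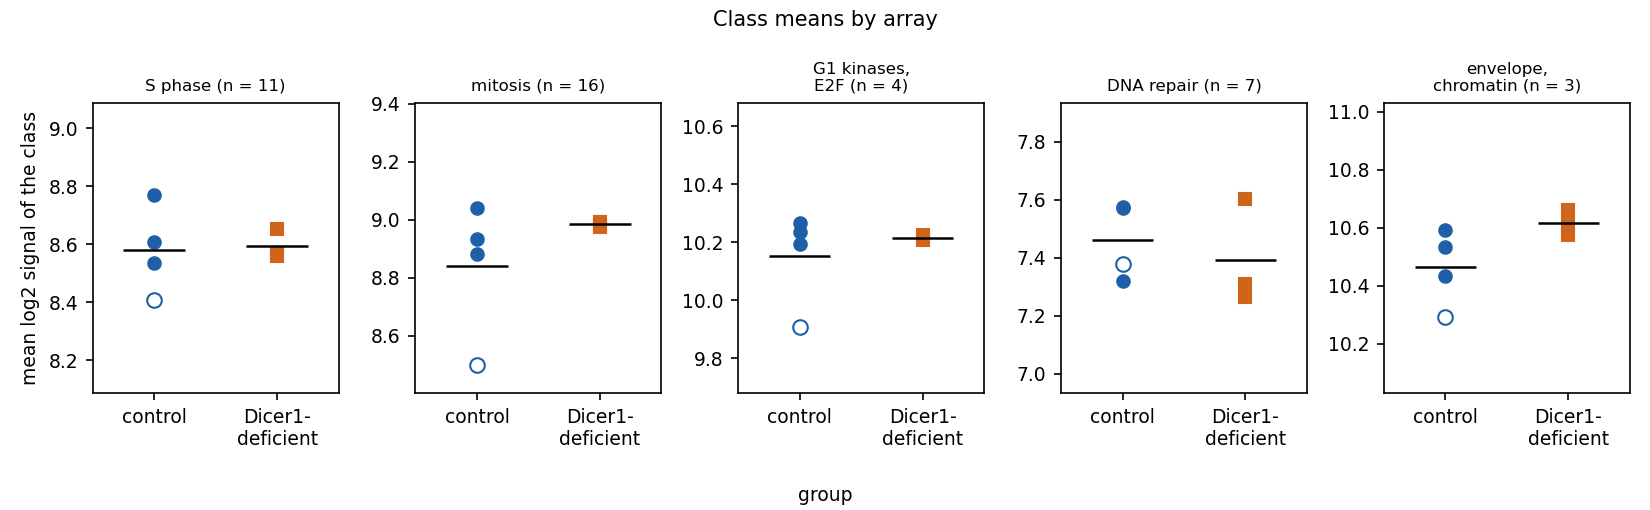
Mean log2 signal over the members of each class (number of genes in brackets) in every array, with control arrays as circles (control 4 open), Dicer1-deficient arrays as squares and group means as lines; each axis spans 1 log2 unit. For mitosis the Dicer1-deficient arrays lie at 8.98 to 8.99, inside the range of controls 1 to 3, with control 4 at 8.50.

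S-phase genes were level with all arrays. Their median log2 fold change was 0.02 over 11 members, with 6 positive and 5 negative and 0 at an unadjusted limma p under 0.05. Without control 4 the median was -0.03, with 4 of 11 positive (36.4%, against 57.1% of all genes). With probe sets averaged over all arrays 7 were positive (median 0.06). With both changes 2 were (18.2%, against 51.3% of all genes), with a median of -0.06. The licensing genes came first in role. Mcm6, a subunit of the replicative helicase, read 11.45, 11.25, 11.32 and 11.67 in the controls and 11.36, 11.35 and 11.24 in the Dicer1-deficient arrays (log2 fold change -0.10, 95% interval -0.38 to 0.18). The groups overlapped, with control 4 highest. Its partner Mcm3 had a log2 fold change of 0.02 (95% interval -0.30 to 0.34).

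Cdc6, which loads the helicase onto origins, had the lowest log2 fold change of the class at the brightest probe set. It read 7.55, 7.77, 7.65 and 7.17 in the controls and 7.54, 6.68 and 7.23 in the Dicer1-deficient arrays, a log2 fold change of -0.39 (SE 0.22, limma adjusted p = 0.513). Dicer1-deficient array 2 was lowest, and the groups overlapped through control 4. With its 9 probe sets averaged Cdc6 was at 0.05, and 5 of them were higher. Gmnn encodes geminin, which blocks relicensing, and Dtl a ubiquitin ligase receptor that has the licensing factor Cdt1 destroyed. Gmnn read 6.75, 6.39, 6.63 and 5.09 in the controls against 6.602, 6.69 and 6.71. Only control 4 was low, so the log2 fold change of 0.45 became 0.08 without it. Dtl read 8.91, 8.47, 8.29 and 8.18 against 8.63, 8.77 and 8.65, with the Dicer1-deficient arrays between control 1 and the other controls (log2 fold change 0.22).

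The genes that copy DNA and supply its building blocks lay closer still. Prim1 and Prim2, the primase subunits, had log2 fold changes of -0.11 and 0.10, and Pole2, a subunit of polymerase epsilon, of -0.11. Timeless, of the fork protection complex, was at 0.10. Rrm2, the regulated subunit of ribonucleotide reductase, was at -0.06 (95% interval -0.31 to 0.19) and Tk1, thymidine kinase, at 0.03. Each of these 6 intervals lay inside 2-fold and held 0.

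Mitotic genes had a median log2 fold change of 0.17, which fell to 0.08 without control 4 and to 0.00 on the mean of probe sets. Of 16 members 12 were positive, and 0 passed the limma test over all genes. With probe sets averaged and control 4 left out, 4 were positive (25%, against 51.3% of all genes), with a median of -0.12. Cdk1, the kinase that starts mitosis, read 10.72, 10.64, 10.59 and 10.31 in the controls and 10.71, 10.83 and 10.78 in the Dicer1-deficient arrays (log2 fold change 0.21, 95% interval -0.07 to 0.49). The groups overlapped, with control 4 lowest. Top2a, the topoisomerase that untangles sister chromatids and a usual mark of dividing cells, read 11.49, 11.42, 11.56 and 11.23 against 11.61, 11.47 and 11.69 (log2 fold change 0.16, 95% interval -0.10 to 0.43). Again the groups overlapped.

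Zwint was the member nearest to a call. It encodes a kinetochore protein that binds the KNL1 scaffold and helps recruit the checkpoint motor complex. At its brightest probe set Zwint read 10.75, 10.72, 10.88 and 11.02 in the controls and 11.26, 11.33 and 11.22 in the Dicer1-deficient arrays. Every Dicer1-deficient array was above every control, control 4 included. The means were 10.84 ± 0.14 (SD, n = 4) and 11.27 ± 0.05 (SD, n = 3), 1.34-fold higher, with a log2 fold change of 0.43 (SE 0.11, limma adjusted p = 0.10). That missed the threshold of 0.05.

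Of 16 alternative fits 5 placed Zwint past it and 11 did not. With its 9 probe sets averaged Zwint read 9.06, 9.09, 9.11 and 8.95 in the controls and 9.56, 9.42 and 9.59 in the Dicer1-deficient arrays. The groups again stood apart, as they did on this scale for 18.9% of all genes. The log2 fold change there was 0.47 (SE 0.08, limma adjusted p = 0.0122), in a setting that called 5.86% of all genes, 3.03% higher and 2.83% lower. Without control 4 the brightest probe set gave 0.48 (limma adjusted p = 0.0222), where 5.18% of all genes were called. It also passed with a variance trend (2.75% of all genes called) and with array weights (7.67%). The fifth was the mean of probe sets without control 4 (adjusted p = 0.00325). It did not pass on the median of probe sets (limma adjusted p = 0.0730), with quantile normalization (0.0879), median centring (0.316), dim genes left out (0.0658) or robust moderation (0.106), nor with 1 of the other 6 arrays left out at a time. Of its 9 probe sets 8 were higher in the Dicer1-deficient arrays, as 49.7% of all probe sets were, and 7 did not overlap, where 14% of all did not. Fitted apart over all 53644 probe sets, 1 of them passed, from 9.04 ± 0.08 (SD, n = 4) to 9.85 ± 0.09 (SD, n = 3), 0.82 higher on the log2 scale (limma adjusted p = 0.0225), where 1.06% of all probe sets passed. Brca1 was the other member with such a probe set, 2 of 41 where 3.69% of all genes had one. Without control 4, when 2.3% of probe sets passed, it was 4 members (with Hmmr and Pole2) and 9.09% of genes. Probe sets of a gene share its RNA and are not replicates.

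Other kinetochore and spindle genes gave values on both sides of 0, and none passed here. Nuf2, of the NDC80 complex that holds microtubules, had a log2 fold change of -0.31, and -0.57 without control 4 (limma adjusted p = 0.0552). Hmmr, a spindle assembly factor, was at -0.19 and -0.46 without control 4. Cenpf, a large kinetochore protein gene, was level at 0.02 at its brightest probe set. Spag5, of the spindle, was at 0.18.

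Kif14 and then Nek2 followed Zwint by p within the class. Nek2, a kinase that splits centrosomes, read 8.26, 8.03, 8.18 and 7.72 in the controls and 8.39, 8.30 and 8.34 in the Dicer1-deficient arrays. The groups did not overlap, though the gap to control 1 was small (log2 fold change 0.29, SE 0.14, limma adjusted p = 0.399). Kif14, a motor of cell separation, read 6.67, 7.12, 7.23 and 6.49 against 7.45, 7.17 and 7.74, and the groups overlapped. Its log2 fold change of 0.57 (limma adjusted p = 0.275) rested on the brightest of 32 probe sets, and on their mean it was -0.15.

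Of the rest of the class, Birc5 and Aurkb, which encode survivin and the kinase of the same chromosomal passenger complex, had log2 fold changes of 0.29 and 0.13. Birc5 was at -0.05 without control 4. Aspm, a spindle pole gene needed for neural progenitor divisions, was at 0.15, and Pttg1, whose product securin guards sister chromatids, at 0.21. Of the 9 probe sets of Pttg1 5 were higher. On their mean it was at -0.06, and on their median at -0.55 (limma adjusted p = 0.389). Trip13, a checkpoint ATPase gene, was at 0.40, and 0.08 without control 4, which read 6.94 where the other controls read 8.20 to 8.25. Kif18b, a microtubule motor gene, was at -0.14.

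Gas2l3, a cytoskeletal linker of late mitosis, was at -0.09 at its brightest probe set, and lower in the Dicer1-deficient arrays at all 13. With probe sets averaged and control 4 left out, Gas2l3 (-0.39, limma adjusted p = 0.0457) and Cenpf (-0.36, limma adjusted p = 0.0254) passed, in a setting that called 17% of all genes. In that setting 5 of the 41 members (Zwint, Cdk2, Brca1, Cenpf and Gas2l3) passed, 1 higher and 4 lower. For all genes the share lower was 10.3% and the share higher 6.74%.

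**Figure D4:**
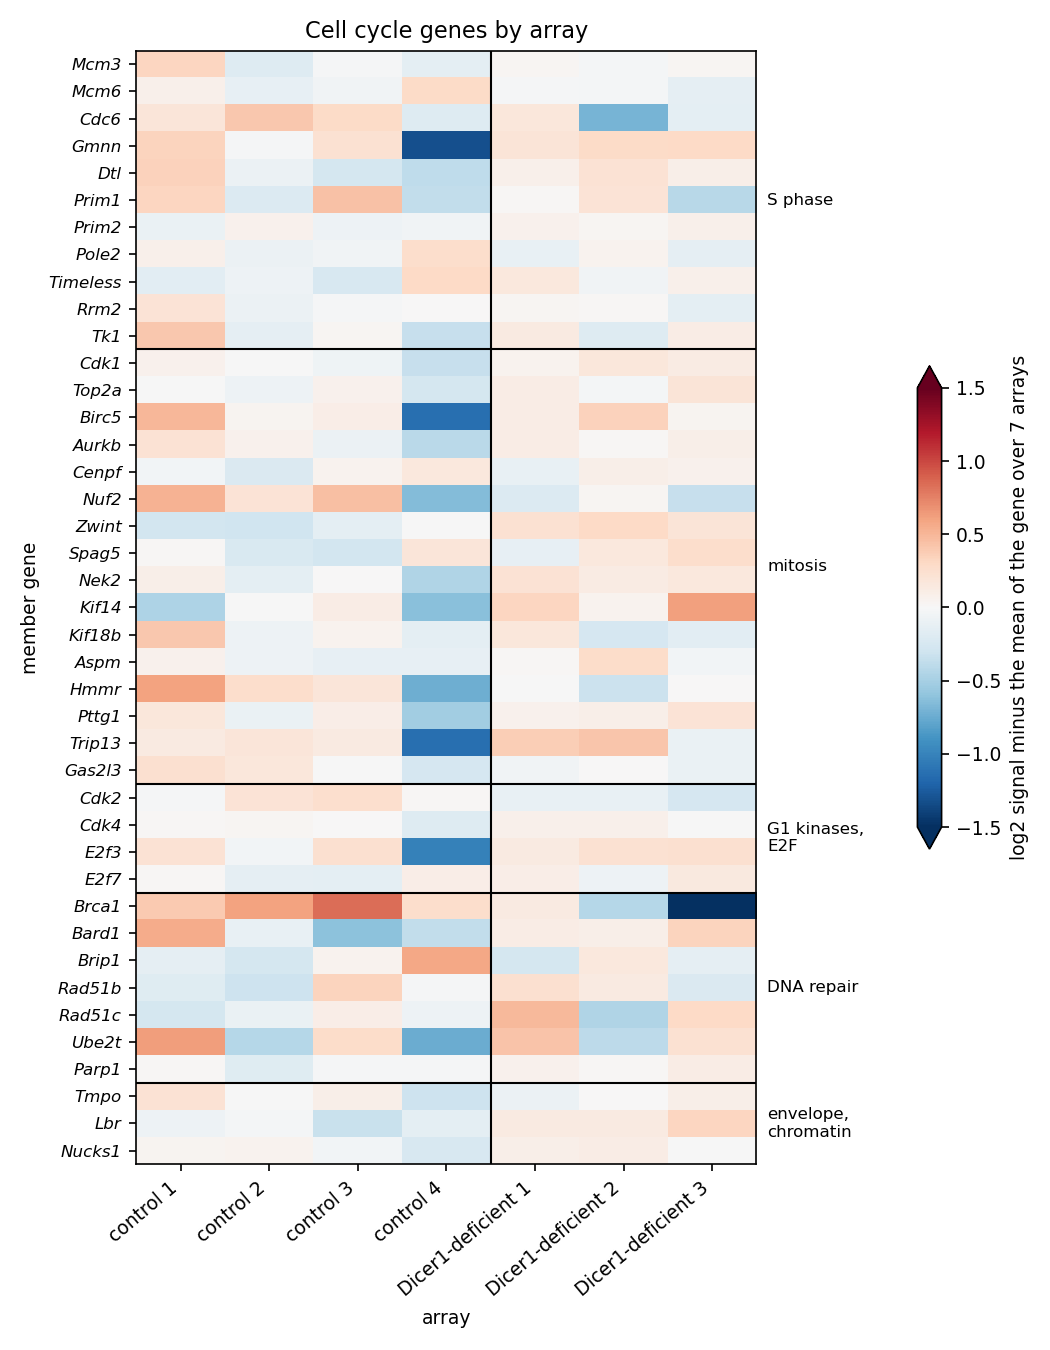
Log2 signal of the 41 members at the brightest probe set in each of the 7 arrays, less the mean of the gene over the arrays (red higher, blue lower; colours end at 1.5). Zwint is higher and Cdk2 lower in the 3 Dicer1-deficient arrays, Brca1 is lowest in Dicer1-deficient array 3, and Gmnn, Birc5, Trip13 and E2f3 are low in control 4.

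At the brightest probe sets of the G1 kinases and E2F factors, Cdk2 lay lower and Cdk4 level. Cdk2 is the kinase that cyclins E and A use to drive entry into and passage through S phase. At its brightest probe set it read 10.60, 10.82, 10.87 and 10.62 in the controls and 10.50, 10.50 and 10.36 in the Dicer1-deficient arrays. The groups did not overlap, though control 1 lay close to the Dicer1-deficient arrays, and the log2 fold change of -0.27 (SE 0.11, limma adjusted p = 0.304) did not pass.

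Its other probe sets gave larger differences for the most part. All 11 were lower in the Dicer1-deficient arrays, from -0.91 to -0.21 on the log2 scale. In 9 of them the groups did not overlap, where 14% of all probe sets did not. The mean of the 11 read 9.36, 9.49, 9.72 and 9.45 in the controls and 9.18, 8.995 and 8.91 in the Dicer1-deficient arrays. The groups stood apart, as they did on this scale for 18.9% of all genes. On that scale Cdk2 fell by 0.48 (SE 0.11, limma adjusted p = 0.0340), from 9.50 ± 0.155 (SD, n = 4) to 9.03 ± 0.13 (SD, n = 3). In that setting 2.83% of all genes were called lower. Without control 4 Cdk2 was at -0.49 (limma adjusted p = 0.0169), where 10.3% of all genes were called lower. No probe set of Cdk2 passed when fitted apart.

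Cdk4, the kinase partner of D cyclins that begins the release of E2F, read 12.56, 12.58, 12.55 and 12.35 in the controls and 12.62, 12.62 and 12.54 in the Dicer1-deficient arrays (log2 fold change 0.08, 95% interval -0.14 to 0.31). The groups overlapped there, and control 4 alone was low. All 10 probe sets of Cdk4 were higher in the Dicer1-deficient arrays, as 49.7% of all probe sets were. Without control 4, 7 of the 10 were. With them averaged Cdk4 was at 0.17 (limma adjusted p = 0.344). The groups did not overlap on that scale, as for 18.9% of all genes. E2f3, an activating E2F, read 8.36, 8.10, 8.39 and 7.14 against 8.28, 8.38 and 8.39. Its log2 fold change of 0.35 became 0.06 without control 4. E2f7, a repressing E2F, read 9.43, 9.28, 9.27 and 9.52 against 9.51, 9.34 and 9.56, with the groups mixed (log2 fold change 0.10).

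Among the DNA repair genes Brca1 had, at the brightest probe set, the largest difference of all 41 members and the widest spread within a group. With probe sets averaged Cdk2 (-0.476), Brca1 (-0.474) and Zwint (0.469) were level in size. On the median of probe sets Pttg1 was at -0.55, Cdk2 at -0.49, Zwint at 0.44 and Brca1 at -0.21. Brca1 encodes the scaffold that directs breaks to homologous recombination. At its brightest probe set Brca1 read 8.55, 8.77, 9.004 and 8.42 in the controls and 8.30, 7.73 and 6.35 in the Dicer1-deficient arrays. The groups did not overlap, but the Dicer1-deficient arrays spread widely, and their array 1 lay just under control 4. The means were 8.68 ± 0.26 (SD, n = 4) and 7.46 ± 1.00 (SD, n = 3), and the log2 fold change was -1.22 (SE 0.41, limma adjusted p = 0.218). It was -0.67 without Dicer1-deficient array 3.

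Brca1 differed along its 25 probe sets. The first 12 in order of their identifiers were all lower in the Dicer1-deficient arrays. Their median log2 fold change was -1.04, with a range of -1.40 to -0.37. In 6 of them the groups did not overlap, where 14% of all probe sets did not. The other 13 had a median of -0.02, with 6 higher and 7 lower and 0 without overlap. Control means fell under the overall median of 6.22 in 2 of the first 12 and in 10 of the other 13. This split was chosen after the values were seen, and how the identifiers follow the exons is not given in the sources used here. Probe set 11 passed limma over all 53644 probe sets, going from 5.96, 5.94, 6.08 and 6.33 in the controls to 4.84, 4.74 and 4.72 (log2 fold change -1.31, adjusted p = 0.0068). Its Dicer1-deficient values lay close to the lower quartile of signals (4.63), and whether they exceed background is unknown. On the mean of all its probe sets Brca1 was at -0.47 (limma adjusted p = 0.0631), and without control 4 at -0.54 (adjusted p = 0.0175). In the latter setting 10.3% of all genes were called lower.

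**Figure D5:**
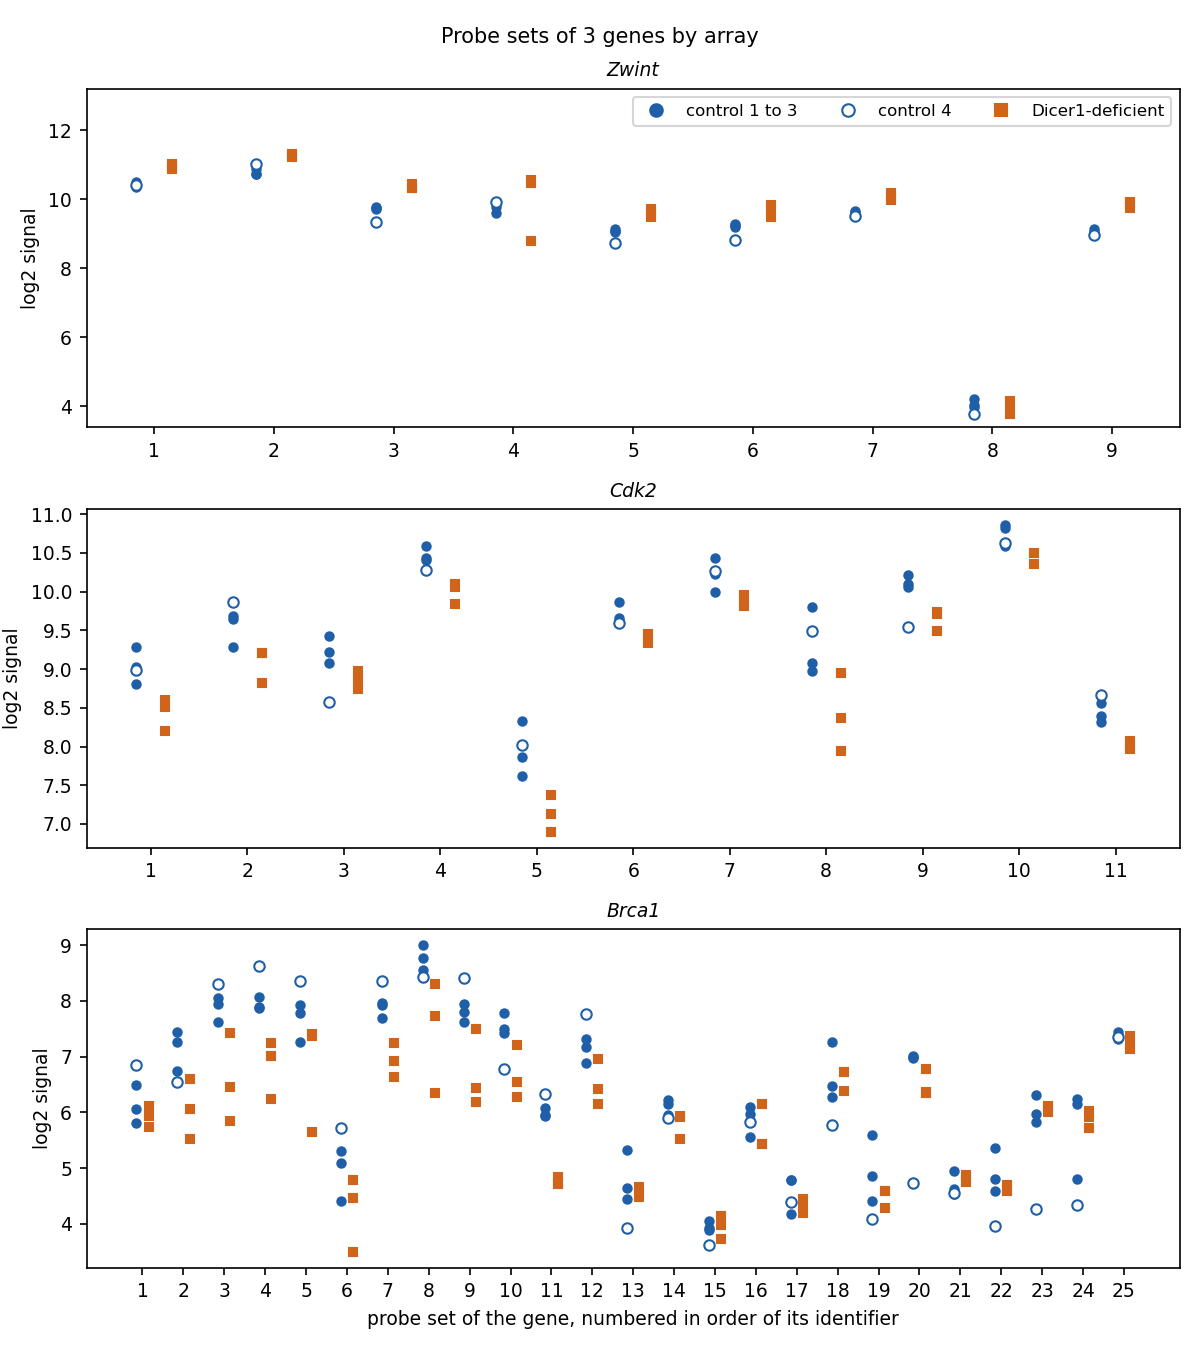
Log2 signal in each array at every probe set of Zwint, Cdk2 and Brca1, numbered in order of identifier, with controls 1 to 3 as filled circles, control 4 as open circles and Dicer1-deficient arrays as squares. Zwint is higher at 8 of 9 probe sets, Cdk2 lower at 11 of 11, and Brca1 lower at the first 12 of 25.

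Of the partners of Brca1 and the other repair genes none passed. Bard1, which forms the ubiquitin ligase with BRCA1, read 7.02, 6.34, 5.84 and 6.08 in the controls and 6.57, 6.54 and 6.79 in the Dicer1-deficient arrays (log2 fold change 0.31, limma adjusted p = 0.716), and the groups overlapped. Brip1, the helicase that binds BRCA1, was at -0.14. Rad51c and Rad51b, paralogs of the recombinase, were at 0.20 and 0.10, with the control mean of Rad51b at 5.65, below the median of all probe sets. Ube2t, the conjugating enzyme of the Fanconi pathway, was at 0.16. Parp1, the break sensor, read 8.85, 8.65, 8.81 and 8.82 against 8.90, 8.84 and 8.95, with the groups overlapping (log2 fold change 0.11, 95% interval -0.11 to 0.33).

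Of the nuclear envelope and chromatin genes, Lbr stood a little higher. It encodes the lamin B receptor of the inner nuclear membrane, which tethers heterochromatin. Lbr read 9.79, 9.84, 9.53 and 9.71 in the controls and 10.001, 10.01 and 10.19 in the Dicer1-deficient arrays. The groups did not overlap, and the difference of 0.35 (SE 0.11, limma adjusted p = 0.201) did not pass, nor did 0.23 with its probe sets averaged (adjusted p = 0.431). Of its 15 probe sets 14 were higher. Tmpo, a lamin-binding gene, read 11.44, 11.22, 11.32 and 10.91 against 11.14, 11.22 and 11.31, and was level at 0.00 (95% interval -0.32 to 0.32). Nucks1, a chromatin protein gene of S phase, read 10.54, 10.55, 10.45 and 10.25 against 10.58, 10.61 and 10.49 (log2 fold change 0.11). In both the groups overlapped.

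Of 95 further genes measured in 5 lists, 1 passed limma over all genes, Dna2, a nuclease and helicase of DNA replication. Only 21.3% of protein-coding genes were measured, and most genes listed by name were missing, so these counts are no survey of the cell cycle. Measured were 6 of 76 other S-phase genes and 15 of 104 other mitotic genes. So were 20 of 60 cyclins, kinases and inhibitors and 21 of 80 other DNA repair genes. Dna2 read 7.76, 7.42, 7.64 and 7.35 in the controls and 8.14, 8.37 and 8.12 in the Dicer1-deficient arrays, without overlap (log2 fold change 0.67, SE 0.13, adjusted p = 0.0498). It lost the call with its 22 probe sets averaged (0.33, adjusted p = 0.285) and with any array but control 4 left out. Its adjusted p over 16 alternative fits ran from 0.0132 to 0.285, and 4 of them kept the call.

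Of 15 other mitotic genes none passed (median 0.01), with Cenpk and Hjurp, both of the centromere, at 0.19 and 0.20. None of 20 cyclins, kinases and inhibitors passed (median 0.09), Cdk17 being at 0.39 and Ccno at -0.32. None of 21 other DNA repair genes passed either (median 0.07), with Rev3l, of the translesion polymerase, at 0.36 and Xrcc5, of the Ku end-binding complex, at 0.25. Those at an unadjusted limma p under 0.05 numbered 0, 4 and 4.

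The replication-dependent histone genes, whose RNA is made in S phase, were also looked at. Of 33 measured, 24 (72.7%) had a positive log2 fold change, against 48.1% of all genes, and without control 4 it was 19 (57.6%) against 57.1%. With probe sets averaged it was 26 (78.8%) against 45.6%, and with both changes 22 (66.7%) against 51.3%. At the brightest probe sets the median was 0.06, and none passed limma, with 3 at an unadjusted p under 0.05. H2bc4 read 8.92, 9.10, 9.07 and 8.95 in the controls and 9.40, 9.56 and 9.34 in the Dicer1-deficient arrays, without overlap (log2 fold change 0.42, adjusted p = 0.0885). H2ac13 was at 0.71 (adjusted p = 0.0839), at signals so low (3.96 and 4.67) that whether they exceed background is unknown. Its 1 probe set passed limma in the fit of probe set means (adjusted p = 0.0265), where 5.86% of all genes were called. Without control 4 it passed too (limma adjusted p = 0.0246), where 5.18% of all genes were called. Near-identical copies in this family may share probes, so single values are uncertain.

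Markers of other cells of the eye moved in part with the groups. The retinal progenitor list had 4 of 17 genes measured. Its array means were 5.30 to 5.98 in control and 5.86 to 6.66 in Dicer1-deficient arrays. Neurod4 was at 1.83 (adjusted p = 0.325) and Nr2e1, the list's member past the limma test, at 0.69 (adjusted p = 0.0155). With probe sets averaged Nr2e1 was at 0.45 (limma adjusted p = 0.0758), and no gene of the list passed. The fibroblast and scleral list, 13 of 20 measured, ran from 11.22 to 11.28 in control and from 10.80 to 11.07 in Dicer1-deficient arrays, with 11 of 13 negative, Col3a1 at 0.01, Omd at -0.92 and none past the test. With probe sets averaged all 13 were negative (Col3a1 -0.27), 3 passed lower, and without control 4 as well 8 did. Macrophage genes, 6 of 17 measured, ran from 8.29 to 9.04, control 4 being highest, and from 8.27 to 8.58. Of the 6, 4 were negative (median -0.15), with Ccl4 at 0.53, Ccl3 at -0.52 and Lyz2 at -0.02. Without control 4, 4 of 6 were positive (median 0.03). The melanocyte and Schwann cell list, 4 of 10 measured, ran from 8.26 to 8.79 and from 8.01 to 8.05. It was led by Pax3 (-0.90) and Erbb3 (-0.59), neither past the test. With probe sets averaged both passed lower (limma adjusted p = 0.00336 and 0.0170), where 2.83% of all genes did. Without control 4 as well 3 of the 4 did, where 10.3% of all genes did. No array was at 0 for any marker, since these signals have no zero.

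Of the RPE list 10 of 28 were measured, with array means of 9.996 to 10.16 in control and 9.98 to 10.04 in Dicer1-deficient arrays, 1 gene higher (Otx1, 1.90) and 1 lower (Kcnj13, -1.19) past the test. Pmel, a melanosome matrix gene and the brightest of them, was at -0.05. With probe sets averaged 4 passed lower (Kcnj13, Sulf1, Rdh5 and Rdh10) and 1 higher (Otx1), and Pmel was at -0.21 (limma adjusted p = 0.189). Photoreceptor genes (7 of 29) ran from 5.98 to 6.72 and 6.69 to 7.09, led by Pde6g (1.38), with Unc119 at 0.55. None passed the test, and with probe sets averaged Unc119 alone did (0.70, limma adjusted p = 0.00898). Lens genes (8 of 22, 7 positive, median 0.84) ran from 6.34 to 7.96 and 7.26 to 8.81, with Cryba1 at 1.96 and Crygc at 0.33. Inner retinal neuron genes (7 of 29, 4 positive, median 0.13, Tfap2a -0.99, Tfap2b 0.86, Prkca -0.22), Mueller glia genes (4 of 12, Gfap 0.48, Glul 0.14) and surface epithelium genes (7 of 12, 3 positive, median -0.07, Perp 0.91, Krt10 -0.73) had 1, 0 and 2 members past the test. Endothelium and pericyte genes (4 of 15, Icam2 -0.30, Rgs5 -0.27) and the erythrocyte gene Slc4a1 (-0.18) had none. Nor had the extraocular muscle genes (13 of 20, 7 positive, median 0.02, Myh1 0.70, Myh8 0.02). With probe sets averaged 4 of these 13 were positive (30.8%, against 45.6% of all genes). Without control 4 the surface epithelium genes turned to 6 of 7 positive (median 0.13), against 57.1% of all genes. With probe sets averaged Krt10 was at -0.19 (limma adjusted p = 0.360), and Perp alone of that list passed. Of the inner retinal neuron genes 2 passed there, Tfap2a lower and Tfap2b higher. The part of any of these cell types in the values of Zwint, Cdk2 and Brca1 was not tested.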

How the data were processed

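For the 7 arrays the authors deposited probe set signals on a log2 scale. The submitters' processing notes name RMA and Partek 6.6 without roles, and the values, from 2.71 to 13.5, are those of a log2 scale. Build, alignment and filters: not given in the sources used here. Of 65535 probe sets, each for part of a gene, 53644 had 1 gene symbol in the platform annotation, 877 had several and 11014 are unnamed here. Symbols were updated with RefSeq (4321 current, 698 updated, 13 unmatched), giving 5017 genes, 4918 of them on chromosomes 1, 10, 11, 12 and 13.

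Each gene was represented by its brightest probe set (mean of 7 arrays), with no filter on dim genes. The test was limma's moderated two-sided test (lmFit, eBayes) at 0.05 after Benjamini-Hochberg adjustment, with 5 residual and 2.82 prior degrees of freedom. Errors of means are SDs over arrays, and the number of arrays limits the precision. The members and lists were chosen with earlier results of these data known.

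All members are named. Array values are given for members called in the main fit, on the mean of probe sets or without control 4, and for the 3 smallest p and the highest signal per class. Cdk1, Kcnj13, Tfap2b, Krt10, Ccl3, Sulf1, Rdh5 and Rdh10 were added after their values were seen. From the other lists of cycle genes come those called or the 2 smallest p, and from cell type lists the largest difference and the highest control signal.

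On 20 simulated data sets of 5017 genes with 200 changed, 23.7% of changes of 0.5 (log2) were recovered. Recovery was 86.3% for changes of 1 and 98.8% for those of 2, and 5.46% of calls were false. These figures describe the simulated sets only. Whether they carry over to the measured arrays, among which control 4 stood apart (array weight 0.137), was not tested. Alternatives were other summaries of probe sets, quantile normalization again, median centring, a filter on dim genes, a variance trend, robust moderation, array weights, another threshold and leaving out arrays. The fit of every probe set apart was added after the data were seen. Promoter sequences came from RefSeq (GRCm38.p6). R 4.3.3 (limma 3.58.1) was used, with pandas 2.3.3 and matplotlib 3.10.9 under Python 3.11.15.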

Additional observations from a re-analysis of the deposited data

Results flagged for a closer look

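In 3 of the 41 members a control array lay far from the other 3, by the ratio of its gap to the range of the controls; chance alone gives about 1 such gene in 20. Trip13 read 6.94 in control 4, against 8.20 to 8.25 in the other controls. Cdk4 read 12.35 in control 4, against 12.55 to 12.58. Parp1 read 8.65 in control 2, against 8.81 to 8.85.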

How the results depend on the processing

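The count of members past adjusted p of 0.05 was 0 with limma, and became 2 on the mean of probe sets (Cdk2 and Zwint), 1 with a variance trend, 1 with array weights and 5 on the mean of probe sets with control 4 left out. With 1 array left out at a time it was 0 to 1, the 1 being Zwint without control 4. Zwint was also the member called with the variance trend and array weights. Mitotic members called went from 0 to 1, 1, 1 and 3 in the same settings and ranged from 0 to 1 with an array left out, and no S-phase member was called in any. Over all genes 117 became 294 on the mean and 176 on the median of probe sets, 385 with array weights, 853 on the mean with control 4 left out and 213 at a threshold of 0.1, and 33 to 260 with an array left out, the most without control 4 and the fewest without Dicer1-deficient array 1. The 1 other cycle gene called became 0 on the median of probe sets, with median centring, a variance trend or robust moderation, 3 with array weights or at a threshold of 0.1, 7 on the mean with control 4 left out and 0 to 2 with an array left out. Members with a probe set past the threshold went from 2 (Brca1 and Zwint) to 4 without control 4 (with Hmmr and Pole2), the lone such fit. On the mean with control 4 left out, the median of the mitotic members moved from 0.170 to -0.118 and that of all members from 0.103 to -0.072, and Cenpf turned from 0.024 to -0.358. The causes of these changes were not tested. Of 655 member values under 16 alternative fits, 72 turned sign, in 27 members, and 1 of these, that of Cenpf, was a call. Splits of calls moved as well: 71 higher and 46 lower became 338 and 515 on the mean with control 4 left out, 78 and 42 with quantile normalization and 54 and 32 with median centring. No paired analysis was possible because the labels carry no replicate numbers shared between the groups. Whether the dimmest signals exceed background is unknown.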
